A study of Mus musculus with 24 samples.

Results

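The genes described here make cholesterol or regulate its level in the cell. They are 29 genes listed by name, and all 29 were found by symbol among the 55487 rows of the deposited count table. In all, 20 of them are textbook targets of the transcription factor SREBP2, 3 are targets of the liver X receptor (LXR), and the other 6 (Ggps1, Lbr, Srebf2, Scap, Insig2 and Nr1h2) were put in neither target group. RNA was sequenced from the kidneys of 24 males aged 15 weeks on the B6 background, every one with X-linked Alport syndrome (XLAS), a hereditary disease of the collagen IV network of the glomerulus. They differed in Nbl1, the gene of a secreted inhibitor of BMP signalling: 13 carried 1 working copy (HET) and 11 had both alleles intact (WT). Batch 1 comprised 6 mice of each genotype, and batch 2 comprised 7 that were HET and 5 that were WT. The comparison thus holds no kidney free of the disease, and p-values measure the spread between these mice.

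Cells build cholesterol from acetyl-CoA through mevalonate, isoprenoids, squalene and lanosterol. When sterols in the endoplasmic reticulum run low, the escort protein SCAP carries SREBP2 to the Golgi, where it is cut, and the released part enters the nucleus and switches on the enzymes of the pathway. When sterols are plentiful, INSIG proteins hold SCAP back, and oxysterols made from cholesterol activate LXR, which switches on the exporters ABCA1 and ABCG1 and the ubiquitin ligase MYLIP. The kidney makes cholesterol of its own and also takes up lipoproteins, and its proximal tubule is rich in membrane. The question put to the data was whether the SREBP2 and LXR targets move against each other from mouse to mouse, and whether either group differs between HET and WT kidneys.

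A promoter from each branch is printed, Hmgcs1 for SREBP2 and Abca1 for LXR. Among the genes considered for printing, only these had a single window that overlaps no annotated exon. Each line gives the 250 bases before the RefSeq transcript start on GRCm38.p6, on the strand of the gene, and neither window overlaps an annotated exon. Capitals mark the letters searched on both strands: the sterol regulatory element TCACNCCAC, the CCAAT box (read as ATTGG on the other strand) and the GC box GGGCGG (read as CCGCCC on the other strand).
Hmgcs1 (chr13:119690101-119690350, plus strand): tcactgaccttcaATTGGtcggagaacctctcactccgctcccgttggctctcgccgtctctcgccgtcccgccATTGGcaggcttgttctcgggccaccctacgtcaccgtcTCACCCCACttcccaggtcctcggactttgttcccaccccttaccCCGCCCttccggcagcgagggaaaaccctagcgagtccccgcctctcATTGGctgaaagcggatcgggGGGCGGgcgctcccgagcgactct
Abca1 (chr4:53159896-53160145, minus strand): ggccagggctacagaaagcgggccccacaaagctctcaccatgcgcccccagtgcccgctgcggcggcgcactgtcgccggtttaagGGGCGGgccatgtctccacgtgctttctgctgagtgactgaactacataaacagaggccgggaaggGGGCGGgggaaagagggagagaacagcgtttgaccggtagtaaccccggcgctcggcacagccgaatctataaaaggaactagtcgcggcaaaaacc
The Hmgcs1 window held 1 sterol regulatory element, 3 CCAAT boxes and 2 GC boxes, and the Abca1 window held 2 GC boxes. Over windows from 250 bases before to 50 bases after the start, 24 of the 29 genes had a RefSeq entry. A CCAAT box was found in 83.3% of these 24 genes and in 41.1% of all 27025 genes with a window, and a GC box in 87.5% against 38.2%. The strict sterol element was found in 1 of the 24, Hmgcs1, and in 1.44% of all genes. Of the LXR DR4 element, a direct repeat with a 4-base spacer, only the perfect repeat was searched. It was found in 0 of the 24 and in 4 of all 27025 genes (0.0148%). A form this rare was unlikely to turn up among 24 genes, so the 0 does not show that LXR elements are absent. Imperfect repeats were not searched, in the Abca1 window or elsewhere. The matches above describe letters in short windows and say nothing of whether a factor binds there.

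Libraries held 29551337 to 33019871 expected counts in batch 1 and 36380374 to 50746652 in batch 2. The batches also differed in the RNA CT010467.1, which took 0.00125% to 0.198% of counts in batch 1 and 4.94% to 18% in batch 2, and in mitochondrial RNA, at 7.51% to 9.7% and 8.82% to 12.2%. In batch 1 the targeted gene Nbl1 went against the label in 3 libraries: the library labelled HET replicate 6 held 9.24 CPM (counts scaled to library size), and the libraries labelled WT replicate 1 and WT replicate 2 held 5.41 and 3.62 CPM, while the other batch 1 libraries held 3.86 to 4.89 CPM in HET and 7.0 to 7.78 CPM in WT. All directions for HET against WT below use the groups as labelled, and the counts without these 3 libraries are given beside them. Counts of Htr6, a neighbour of Nbl1, went against the label in the same 3 libraries, at 0 in HET replicate 6 and 26 and 14 in WT replicates 1 and 2. The other batch 1 libraries held 8 to 39 Htr6 counts in HET and 0 to 1 in WT. Batch 2 holds none of these 3 libraries, but Nbl1 overlapped between genotypes there too, with HET replicate 8 above WT replicate 11. It stood at 4.22 to 7.82 CPM in HET and 7.0 to 15.1 CPM in WT. Htr6 did not overlap in batch 2, at 12 to 49 counts in HET and 0 to 2 in WT. Kidney markers were abundant in every library (the tubular receptor Lrp2 at 3610 to 6650 CPM). Of 8 markers of the adrenal gland, a steroid-making neighbour rich in this pathway, Star (0.83 to 1.8 CPM), Akr1b7 (1.01 to 2.82 CPM) and Mc2r (0.0309 to 0.378 CPM) were detected in every library, while Cyp11b1 was at 0 in 22 of 24 libraries and Nr5a1 in 21. The 8 summed to 2.28 to 4.13 CPM, and their part in the results was not tested. In whole tissue, fewer cells of a type and less RNA per cell cannot be told apart.

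All 29 genes passed the filter on low counts in every comparison. Levels between genes are compared here per length, in TPM, the abundance scaled to transcript length and library size, within batch 2. Hmgcs1, which makes HMG-CoA at the entry of the pathway, stood highest at 257 ± 20.9 TPM (SD, n = 12). Next came Idi1, the isomerase that supplies dimethylallyl diphosphate, at 70.7 ± 5.74 TPM, and Cyp51, which demethylates lanosterol, at 69.1 ± 5.06 TPM, and these neighbours differed by less than their spread. Acat2, the thiolase that joins acetyl-CoA units, followed at 57.6 ± 4.68 TPM, and squalene epoxidase Sqle stood at 45.6 ± 3.86 TPM. At the low end were mevalonate kinase Mvk at 8.6 ± 2.05 TPM, lanosterol synthase Lss at 8.33 ± 1.8 TPM and the sterol reductase Tm7sf2 at 8.22 ± 1.56 TPM, again within each other's spread. Among the LXR targets, Mylip stood at 16.4 ± 3.17 TPM, Abca1 at 12.5 ± 2.62 TPM and Abcg1, the lowest of all 29, at 3.37 ± 1.18 TPM. Batch 1 also had Hmgcs1, Idi1, Cyp51 and Acat2 on top and Abcg1 at the bottom (Hmgcs1 136 ± 17.9 TPM and Abcg1 2.18 ± 0.497 TPM, n = 12).

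Between mice of one genotype and batch, Mylip, Insig1 and Idi1 varied most among the 29 genes and Insig2, Scap and Nr1h2 least. The biological coefficient of variation, the spread between mice beyond counting noise, was 18.2% for Mylip, 17% for Insig1 and 16.9% for Idi1, above the median of 10.7% over all genes tested. It was 5.46% for Insig2, 5.9% for Scap and 6.3% for the LXR gene Nr1h2. Hmgcs1 had 11.1%, Abca1 15% and the SREBP2 gene Srebf2 7.06%.

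Over all mice, no gene of the 29 differed between HET and WT kidneys at an adjusted threshold of 0.05. By edgeR's quasi-likelihood test with batch as a covariate, 0 of 18339 genes passed (0%), and 755 (4.12%) had an unadjusted p under 0.05, 2.48% positive and 1.64% negative. DESeq2 passed 0 genes too, with 811 of them under 0.05 before adjustment. Of the 29 genes, 4 had an unadjusted p under 0.05, each with an adjusted p of 0.997 by edgeR: Cyp51 at a log2 fold change of 0.11 (p = 0.0409), the sterol carrier Stard4 at 0.10 (p = 0.0415), Nr1h2 at -0.08 (p = 0.0371) and Scap at -0.06 (p = 0.0466). Permutation of genotype within batch gave p = 0.056 for Cyp51 (HET 187 ± 25.6 CPM, n = 13, WT 170 ± 15.2, n = 11), 0.0513 for Stard4, 0.0319 for Nr1h2 and 0.0331 for Scap. Each gene's HET and WT ranges overlapped, and on log2(TPM + 1) the values were 0.05 for Cyp51, 0.04 for Stard4, -0.08 for Nr1h2 and -0.10 for Scap.

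Among the 20 SREBP2 targets, 17 had a positive HET against WT value, against 56.3% of all genes, with a median of 0.04 against 0.01 for all genes; on log2(TPM + 1) this median was -0.01 and that of all genes -0.03. The 3 LXR targets had a median of -0.07, from Abca1 at -0.09 and Abcg1 at -0.07 to Mylip at 0.04 (-0.02 on TPM, where Abcg1 was at -0.22). Without the 3 doubted libraries the SREBP2 median was 0.02 and the LXR median -0.12, with Abca1 at -0.12 and Abcg1 at -0.13. Key genes of the feedback loop were near 0: Hmgcs1 had 461, 568 and 687 CPM as the lowest, median and highest HET mouse and 474, 557 and 644 CPM in WT, a log2 fold change of 0.01 (standard error 0.07) that was -0.04 on log2(TPM + 1). Insig1, the sterol-sensing anchor that is itself an SREBP2 target, had 36.5, 48.9 and 68.7 CPM in HET and 35.6, 48.0 and 61.1 CPM in WT, at 0.05 (-0.01 on TPM). Srebf2 had 71.8, 83.9 and 95.7 CPM in HET and 71.9, 79.6 and 93.0 CPM in WT, at 0.02 (-0.02 on TPM). For all 3 genes the genotypes covered nearly the same range. Without the 3 doubted libraries 0 of the 29 genes and 2 of all genes passed, and the 4 genes named above kept their signs, with an adjusted p of 0.922 each by edgeR.

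In batch 1 the genes were evenly spread around 0. None of 18494 genes passed by edgeR's quasi-likelihood test (0%), 522 (2.82%) had an unadjusted p under 0.05, 1.28% positive and 1.54% negative, and 0 of the 29 were among them; DESeq2 passed 1 gene, with 550 under 0.05. SREBP2 targets were positive in 11 of 20 cases with a median of 0.01, and the LXR targets in 3 of 3 with a median of 0.07, against 49.4% of all genes. The smallest p belonged to Scap, at -0.07 (p = 0.0774), with 73.3, 75.2 and 79.2 CPM as the lowest, median and highest HET mouse and 74.4, 79.7 and 84.1 CPM in WT. Hmgcs1 had 461, 531 and 639 CPM in HET and 519, 592 and 642 CPM in WT, a log2 fold change of -0.11 (p = 0.156 by edgeR). Mvd, the mevalonate diphosphate decarboxylase, was at -0.10 (p = 0.165) and Abcg1 at 0.12 (p = 0.206), and each of these adjusted p-values was 1 by edgeR. HET and WT mice overlapped for all 29 genes. On log2(TPM + 1) Scap was at 0.00, Hmgcs1 at -0.04, Mvd at -0.03 and the SREBP2 median at 0.05, where the median of all genes was also 0.05. Without the 3 doubted libraries Scap was at -0.09, Hmgcs1 at -0.11, Mvd at -0.15 and Abcg1 at 0.08, all with an adjusted p of 1 by edgeR. The SREBP2 median was then -0.03, and 2 genes outside the pathway passed.

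In batch 2 several synthesis genes had positive and both sterol exporters negative HET against WT values, but none of the 29 passed the adjusted threshold by edgeR. There 1 of 17955 genes passed (0.00557%), the Nbl1 neighbour Htr6, and 1486 (8.28%) had an unadjusted p under 0.05, 4.08% positive and 4.2% negative. Cyp51 had 184, 207 and 231 CPM as the lowest, median and highest of 7 HET mice and 160, 168, 183, 183 and 184 CPM in the 5 WT mice. Before rounding, the lowest HET mouse stood above the highest WT mouse, so the groups did not overlap, which held for 0.551% of all genes in either direction. On the log2 scale HET exceeded WT by 0.22 (standard error 0.05), a fold of 1.16 with a 95% interval of 1.08 to 1.26, and the adjusted p was 0.483 by edgeR. The exact two-sided permutation p was 0.00253. By the DESeq2 Wald test Cyp51 did pass, with an adjusted p of 0.0495, as did 27 genes in all. Leaving out a mouse at a time gave adjusted p-values of 0.176 to 0.851 for Cyp51 by edgeR.

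Sqle and Stard4 had the next smallest p-values. Sqle had 84.9, 94.1 and 101 CPM in HET and 79.4, 79.5, 80.3, 81.3 and 85.1 CPM in WT, so that 1 WT mouse reached into the HET range. Its log2 fold change was 0.18 (exact permutation p = 0.00379, adjusted p = 0.560 by edgeR). Stard4, which moves sterols between membranes, had 83.9, 94.2 and 99.5 CPM in HET and 70.2, 79.8 and 90 CPM in WT as lowest, median and highest, at 0.19 (exact permutation p = 0.00631, adjusted p = 0.563 by edgeR), and 2 WT mice, at 87.1 and 90 CPM, lay above the lowest HET mouse. Msmo1, a methyl sterol oxidase that acts after Cyp51, was at 0.18 (exact permutation p = 0.0391) and squalene synthase Fdft1 at 0.20 (exact permutation p = 0.0543), with adjusted p-values of 0.592 and 0.596 by edgeR. These 5 genes were the SREBP2 targets with an unadjusted edgeR p under 0.05, all positive. On log2(TPM + 1), where the median of all genes was -0.11, Cyp51 was at 0.07, Sqle at 0.03 and Stard4 at 0.02, with adjusted p-values of 0.528 to 0.858 by limma.

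Both exporters lay on the other side. Abca1, which loads cholesterol onto apolipoprotein A-I, had 71.3, 81.8 and 96.1 CPM as the lowest, median and highest HET mouse and 82.7, 86.8, 96.8, 102 and 117 CPM in WT. HET differed from WT by -0.26 on the log2 scale (standard error 0.09, exact permutation p = 0.0328, adjusted p = 0.585 by edgeR). Abcg1, which passes cholesterol to mature lipoproteins, had 8.38, 11.7 and 12.5 CPM in HET and 11.4, 12.7 or 12.8 in 3 mice and 14.0 CPM in WT, at -0.27 (standard error 0.10, exact permutation p = 0.0492, adjusted p = 0.585 by edgeR). For both genes the lowest mice were HET and the highest mouse was WT, with overlap between. On log2(TPM + 1) the values were -0.33 for Abca1 and -0.53 for Abcg1, with adjusted p-values of 0.22 and 0.216 by limma. Mylip, which marks lipoprotein receptors for degradation, did not share this: 25.0, 31.6 and 49.3 CPM in HET and 27.1, 33.0 and 44.7 CPM in WT, at 0.00.

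Over the whole group in batch 2, 16 of 20 SREBP2 targets were positive against 50.1% of all genes, with a median of 0.06, and the LXR median was -0.26; on log2(TPM + 1) the SREBP2 median was -0.04 and changed sign, while the median of all genes was itself -0.11, so that relative to it the SREBP2 targets stood at 0.07 and the LXR targets at -0.21. Hmgcs1 was at 0.11 on CPM and -0.03 on TPM, and Insig1 at 0.06 and -0.10. Markers of other cells moved in the same mice: all 7 adipose markers were lower in batch 2 HET kidneys (median -0.75, summed level 51.1 to 260 CPM in HET and 61.9 to 292 CPM in WT), as were all 8 macrophage markers (97.7 to 169 CPM in HET and 119 to 191 CPM in WT), with none of them past the adjusted threshold and no defining marker at 0 in all libraries. The 5 cell cycle markers (17.5 to 34.7 CPM in HET and 22.9 to 37.1 CPM in WT), 4 of 5 liver markers (55.6 to 120 and 96.3 to 133 CPM) and the summed nerve and Schwann cell markers (11.5 to 16.6 and 15.7 to 19.6 CPM) leaned the same way. CT010467.1 took 7.17% to 18% of counts in HET and 4.94% to 11.6% in WT mice of this batch. The part of these cells and of this RNA in the values of the 29 genes was not tested.

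**Figure D1:**
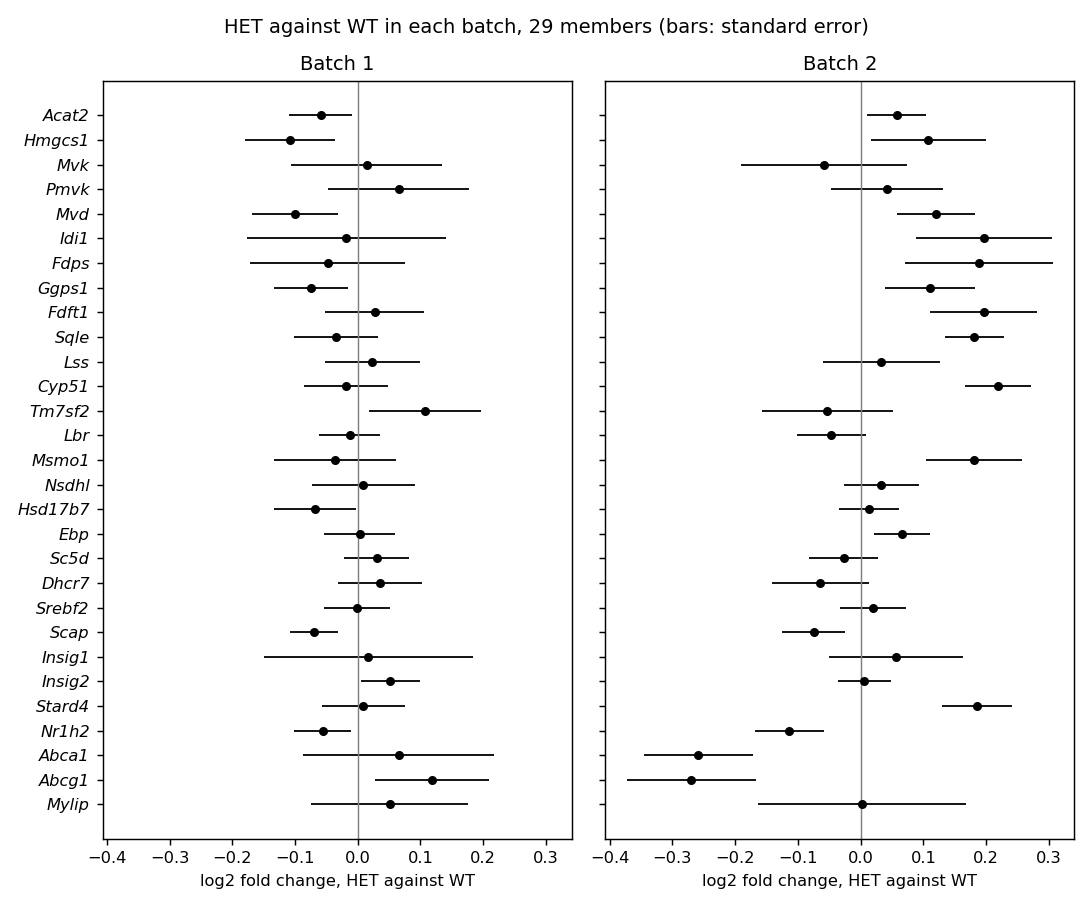
Log2 fold change of HET against WT for each of the 29 genes (vertical axis, ordered by role) in batch 1 and in batch 2, with bars for the standard error, on the CPM scale. Batch 1 values scatter around 0, while in batch 2 Cyp51, Sqle, Stard4, Msmo1 and Fdft1 lie at 0.18 to 0.22 and Abca1 and Abcg1 at -0.26 and -0.27; on TPM the median of the SREBP2 targets in batch 2 was -0.04.

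Whether the batches differ was tested as an interaction of genotype with batch, and no gene passed by edgeR's quasi-likelihood test (0 of 18339, 0%), with 1504 (8.2%) under an unadjusted p of 0.05, 5.19% positive and 3.01% negative. DESeq2 likewise passed 0 genes, with 1573 under 0.05 before adjustment. Of the 29, 5 genes had an unadjusted p under 0.05 in the interaction: Cyp51 at 0.25 (p = 0.00792), Sqle at 0.23 (p = 0.0105), Mvd at 0.24 (p = 0.0207), Stard4 at 0.19 (p = 0.0448) and Abcg1 at -0.37 (p = 0.0134), with adjusted p-values of 0.557 to 0.599 by edgeR. Mvd was at -0.10 in batch 1 and 0.12 in batch 2, and its interaction was 0.00 on TPM, where the median of all genes was -0.16. Of the SREBP2 targets 15 of 20 were positive on CPM, against 55.3% of all genes, with a median of 0.12 that was -0.06 on TPM, 0.10 above the median of all genes there. On TPM the interaction of Cyp51 was 0.03 and that of Sqle 0.01. The LXR median was -0.31 on CPM and -0.51 on TPM. Without the 3 doubted libraries 0 genes passed, with 1249 of all genes and 4 of the 29 under an unadjusted p of 0.05. A difference between the batches in the genotype effect was thus not shown after adjustment.

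**Figure D2:**
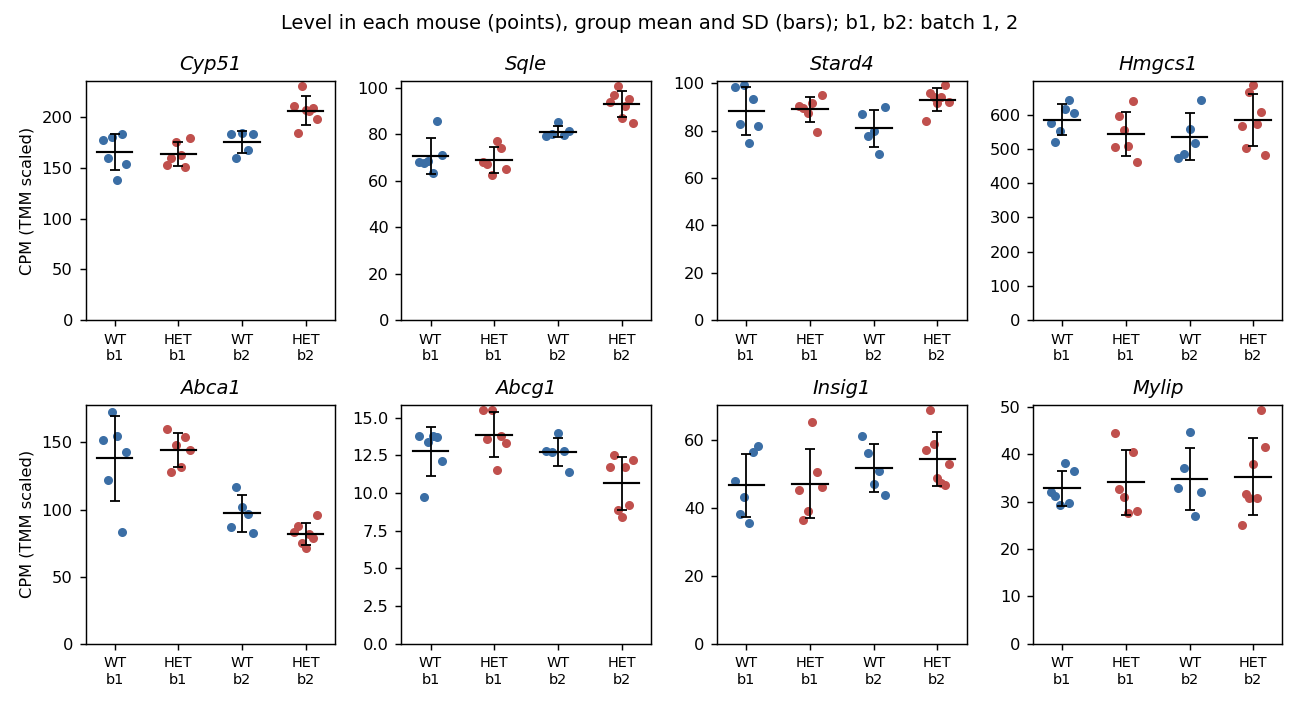
CPM of 8 genes (panels, vertical axis from 0) in every mouse as points, by genotype and batch, with the group mean and SD as bars. In batch 2 the HET mice lie above the WT mice for Cyp51 without overlap, Sqle and Stard4 overlap in part, and Abca1 falls from batch 1 to batch 2 in both genotypes on CPM (it rose by 0.30 on log2(TPM + 1)).

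The batches themselves set these genes apart far more than genotype did. Between batch 2 and batch 1, edgeR's quasi-likelihood test with genotype as a covariate passed 11645 of 18339 genes (63.5%), 32.6% higher and 30.9% lower in batch 2, while 66.3% had an unadjusted p under 0.05 (34.3% higher, 32% lower) and 53.1% had a positive value. Of the 29 genes, 18 were higher and 3 lower in batch 2; without the 3 doubted libraries the counts were 16 and 3. The SREBP2 targets leaned one way, with 14 of 20 higher and 0 lower and a median of 0.20, while the median of all genes was 0.03 and that of the LXR targets -0.20. On log2(TPM + 1) the median of all genes rose by 0.69 and all 29 genes passed as higher in batch 2, so the lower calls hold only relative to other genes: the SREBP2 targets stood 0.36 above that median and the LXR targets at -0.25 against it.

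Fdft1 rose most on CPM, from 13.3, 17.3 and 19.8 CPM as lowest, median and highest of 12 mice in batch 1 to 19.6, 23.4 and 31.1 CPM in batch 2, a log2 change of 0.46 (adjusted p = 1.65e-07 by edgeR). Mvd rose from 21.5, 24.8 and 29.2 CPM to 28, 31.8 and 38.8 CPM, by 0.40 (adjusted p = 7.66e-08). Nr1h2, the LXR beta gene, rose by 0.32 (adjusted p = 2.07e-09), with batch 1 at 31.2, 34.3 and 37.1 CPM and batch 2 at 36.9, 43.1 and 47.3 CPM. In all 3 genes only the edges of the batches overlapped. Sqle rose by 0.32 and Srebf2 by 0.18, and 3 of the 4 sensing genes passed as higher, the exception being Insig1 at 0.18 (adjusted p = 0.116 by edgeR). Hmgcs1 and Idi1, with changes of 0.00 and 0.04, did not follow, nor did Stard4 at -0.02, and none of these 3 passed.

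The 3 genes lower in batch 2 on CPM were Lbr, Abca1 and Abcg1. Lbr, a nuclear membrane protein with sterol reductase activity, fell from 37.2, 42.7 and 45.1 CPM to 28.6, 33.4 and 35.9 CPM, by 0.35 (adjusted p = 1.7e-09 by edgeR). Abca1 fell from 83.2, 146 and 173 CPM to 71.3, 85.2 and 117 CPM, by 0.67 (standard error 0.09, adjusted p = 1.19e-06). In batch 1 only WT replicate 5, at 83.2 CPM, lay within the batch 2 range, the other 11 mice being at 122 to 173 CPM. Abcg1 fell by 0.20 (adjusted p = 0.0243 by edgeR), a call that was lost without HET replicate 1 (adjusted p = 0.0502), without HET replicate 3 (0.0513) or with no filter on low counts (0.072). On log2(TPM + 1) the 3 genes had positive changes of 0.56, 0.30 and 0.45, all under the 0.69 of the median gene. Macrophage markers, 8 of 8 of which were higher in batch 2 (7 past the threshold), and adipose markers, 7 of 7 positive with none past it, moved the other way from Abca1. Depth and the share of CT010467.1 cannot be told apart from batch.

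**Figure D3:**
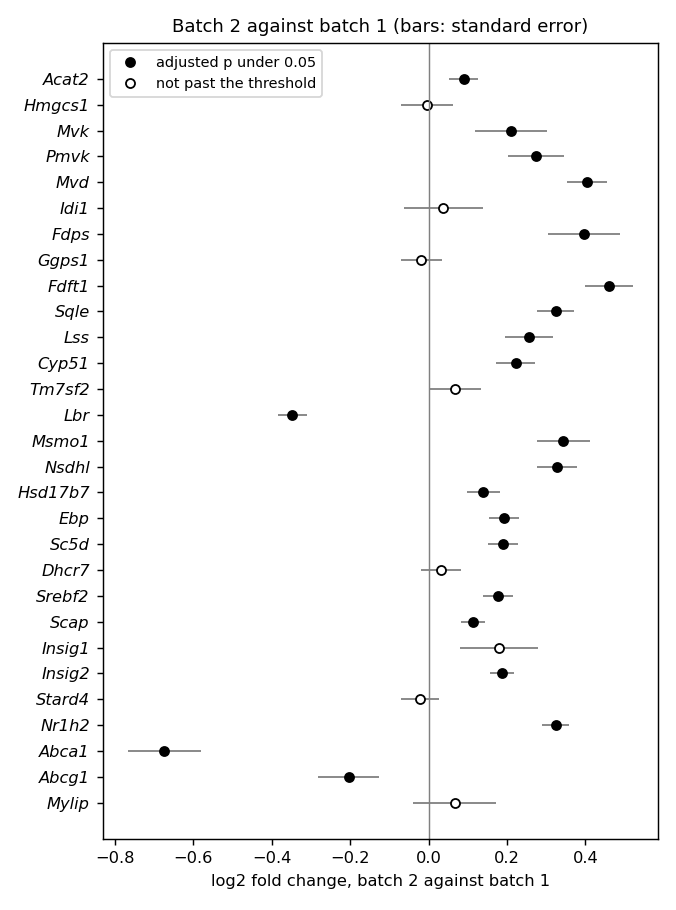
Log2 fold change of batch 2 against batch 1 for each of the 29 genes on the CPM scale (bars: standard error), with filled points for an adjusted p under 0.05. Filled points lie to the right for 18 genes and to the left for Lbr, Abca1 and Abcg1; on log2(TPM + 1), where the median of all genes rose by 0.69, these 3 were positive.

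The following scores and correlations are between mice of one genotype and batch, so the batch shift does not enter: each value is a deviation from the mean of its genotype and batch, over 24 mice. The score of a group is the mean log2 CPM of its genes. The SREBP2 and LXR scores had a Pearson correlation of -0.30 and a Spearman correlation of -0.25, given as a description, with -0.32 in batch 1 and -0.28 in batch 2. This relation was weak and rested on a few mice: without the 2 mice farthest from the median SREBP2 score, r was -0.05. It was -0.49 to -0.14 when a mouse was left out at a time, the weakest without WT replicate 5, which had the highest SREBP2 score (0.19 above its group) and the lowest LXR score (-0.24), and -0.51 without the 3 doubted libraries. On log2(TPM + 1) the sign turned, with r = 0.47, on a scale where most genes moved together (the median r of all genes with Abca1 was 0.37, against -0.03 on CPM). An opposite movement of the branch scores across mice was therefore not stable to the scale. Library depth (log2 total counts) had r = -0.31 with the SREBP2 score (-0.49 in batch 1, -0.31 in batch 2). With the LXR score depth had r = 0.45, and its part in the relation of the scores was not tested.

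**Figure D4:**
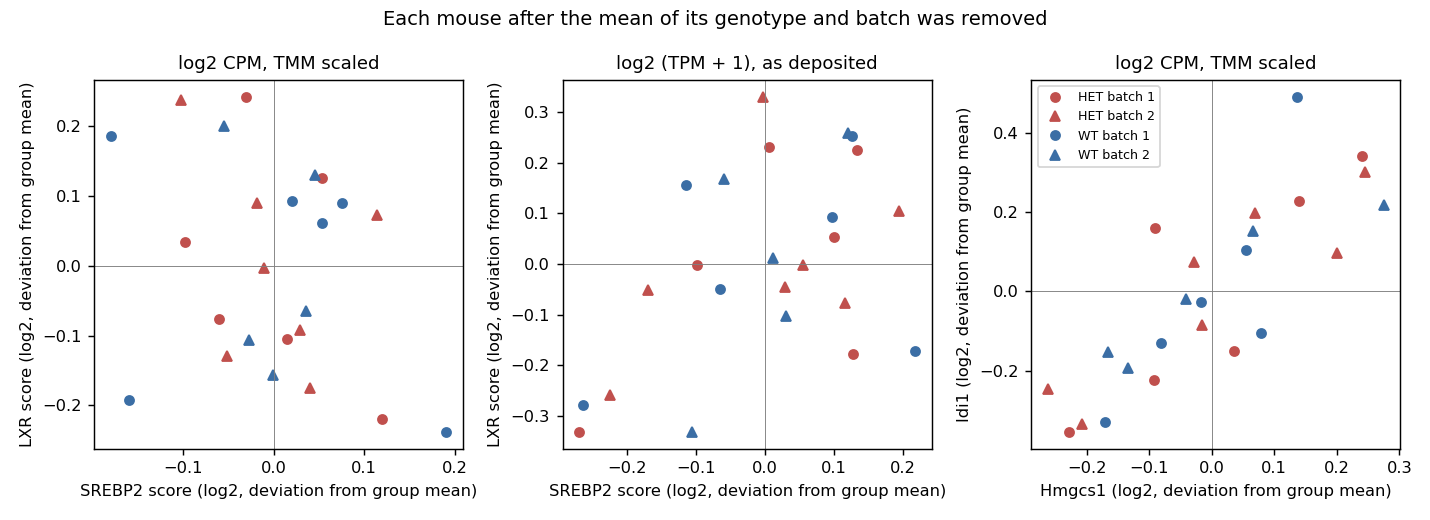
Each point is a mouse, as its deviation on the log2 scale from the mean of its genotype and batch: SREBP2 score against LXR score on CPM, the same on TPM, and Hmgcs1 against Idi1 on CPM. The scores have r = -0.30 on CPM and 0.47 on TPM, while Hmgcs1 and Idi1 lie along a line with r = 0.83.

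Within the SREBP2 targets, 154 of 190 pairs correlated positively, with a median r of 0.30. Of all genes, 51.5% correlated positively with Hmgcs1, 47.9% with Insig1 and 51.4% with Sqle, with median r of 0.01, -0.02 and 0.01. On TPM these medians were 0.14, 0.39 and 0.41, and the pairs were not counted on that scale. Pairs of an SREBP2 with an LXR target were negative in 42 of 60 cases, with a median of -0.13. Abca1 (15 of 20 negative) and Mylip (18 of 20) leaned this way, but Abcg1 did not (9 of 20 negative, median 0.05). The genes nearest to the rest of the group were Nsdhl (r = 0.84 with the mean of the other SREBP2 targets), a sterol dehydrogenase, then Msmo1 (0.81) and Insig1 (0.78), and Srebf2 itself had r = 0.68. Hmgcs1, the most abundant of them, was lowest at -0.06, and Mvd (0.10), Ebp (0.12), Idi1 (0.22) and Cyp51 (0.24) were also low. The share of CT010467.1 moved with the SREBP2 score (r = 0.73 over all mice, 0.81 in batch 1 and 0.26 in batch 2), and its part in the shared movement was not tested.

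Correlations with Hmgcs1, Insig1, Sqle and Abca1 were tested against all genes, 4 families of 18338 genes each, by permutation within genotype and batch. For Hmgcs1, 1153 genes passed (6.29%), and for the other 3 no gene did (0.0%). Idi1 was the gene of the pathway that followed Hmgcs1 most closely, with r = 0.83 and a Spearman rho of 0.86 (permutation p = 0.00001, the smallest that 100000 permutations can give, adjusted p = 0.00458). The value was 0.81 in batch 1, 0.91 in batch 2, 0.82 without the 2 mice farthest in Hmgcs1 and 0.79 on TPM. Insig1 did not follow Hmgcs1 (r = -0.24, 0.04 in batch 1, -0.59 in batch 2 and 0.11 on TPM). It lay instead with Pmvk (r = 0.79), phosphomevalonate kinase, Fdft1 (0.78) and Msmo1 (0.77), with adjusted permutation p-values of 0.116, 0.0917 and 0.119. The highest of all 406 pairs was Fdps with Lss at 0.87, and the lowest was Ggps1 with Mvk at -0.76, which was 0.32 on TPM. The genes Idi1 and Msmo1 and these last pairs were singled out after their values were seen.

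Across the branches, Hmgcs1 and Abca1 had r = -0.40 (rho -0.38, permutation p = 0.0275, adjusted p = 0.158), -0.21 in batch 1 and -0.73 in batch 2. Without the 2 mice farthest in Hmgcs1 it was -0.29, and on TPM 0.02. Sqle and Abca1 had r = -0.54 but rho = -0.24 (permutation p = 0.0498, adjusted p = 0.83), and without the 2 mice farthest in Sqle r was -0.03, so the relation rests on those mice; it was -0.67 in batch 1, -0.13 in batch 2 and 0.26 on TPM. WT replicate 5 had the highest Sqle of batch 1, at 85.9 CPM, and the lowest Abca1, at 83.2 CPM. Insig1 and Abca1 had r = -0.12, with 0.28 in batch 2 and 0.34 on TPM. Idi1 and Abca1 had r = -0.57 and rho = -0.47 (permutation p = 0.00858, adjusted p = 0.266), with -0.54 in batch 1 and -0.66 in batch 2. This pair kept its sign without the 2 mice farthest in Idi1 (-0.47), without WT replicate 5 (-0.36) and on TPM (-0.29). Between the exporters, Abca1 and Abcg1 had r = 0.38 and rho = 0.55 (permutation p = 0.0922, adjusted p = 0.559), 0.22 in batch 1, 0.68 in batch 2 and 0.73 without the 2 mice farthest in Abca1.

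**Figure D5:**
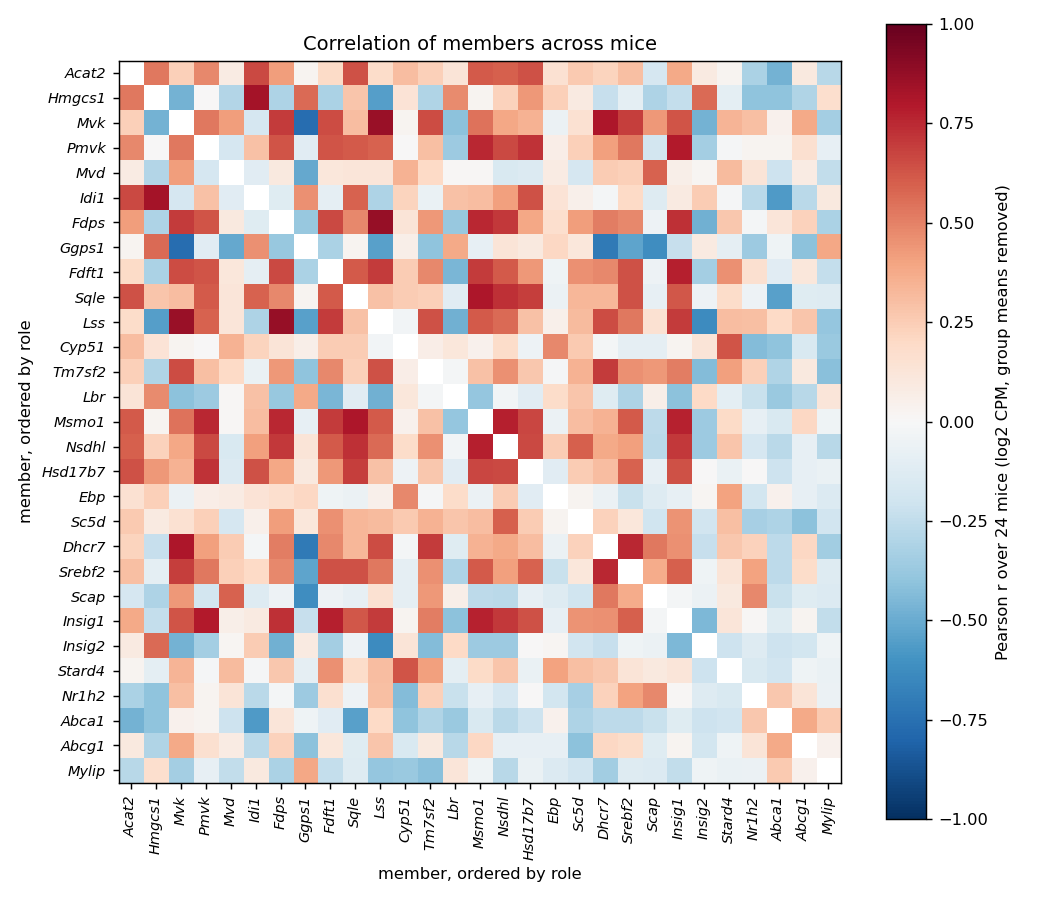
Pearson r over 24 mice for every pair of the 29 genes, on log2 CPM after the group means were removed, from blue (-1) to red (1), with genes ordered by role. Most pairs of SREBP2 targets are red (154 of 190 positive). The Hmgcs1 row is reddest at Idi1 (0.83), Ggps1 (0.57), Insig2 (0.57) and Acat2 (0.53). Against the SREBP2 targets the rows of Abca1 and Mylip are mostly pale to blue (15 and 18 of 20 negative). The Abcg1 row is mixed against them (9 of 20 negative). Some signs turn on TPM, as for Ggps1 with Mvk.

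A count model gave the slope of every gene on the log2 CPM of Hmgcs1, with genotype and batch as covariates. Unlike the correlations, this fit and the slope fits below held no interaction of genotype with batch. Genotype differences that are unlike between the batches can thus enter the slopes. By edgeR's quasi-likelihood test 2114 of 18338 genes passed (11.5%), 1467 with a positive (8%) and 647 with a negative slope (3.53%). Of the other 28 genes of the pathway, 3 passed, all positive: Idi1 with a slope of 1.21 (standard error 0.17, adjusted p = 0.000174), Ggps1, which makes geranylgeranyl diphosphate, with 0.50 (adjusted p = 0.0131) and Acat2 with 0.31 (adjusted p = 0.033). Of these, Idi1 passed whichever mouse was left out, with slopes of 1.08 to 1.31. Ggps1 was lost without HET replicate 6, HET replicate 9 or WT replicate 8, which left 1066, 1330 and 1176 genes past the threshold. Acat2 was lost in 16 of 24 such fits. In the permutation test of correlation with Hmgcs1, neither Ggps1 (adjusted p = 0.0888) nor Acat2 (adjusted p = 0.0546) passed. Lss had a slope of -0.47 (adjusted p = 0.0593), Abca1 -0.64 (0.121) and Abcg1 -0.50 (0.15). DESeq2 passed 2765 genes and 5 of the pathway, adding Lss (adjusted p = 0.0436) and Abca1 (adjusted p = 0.0419) as lower. Of the other SREBP2 targets 10 of 19 had a positive slope, against 52.8% of all genes, with a median of 0.02 against 0.03. Without the 3 doubted libraries 1237 genes passed, and of the pathway Idi1 (1.13) was higher and Lss (-0.58, adjusted p = 0.0491) and Abcg1 (-0.76, adjusted p = 0.044) were lower with Hmgcs1. Over all 24 mice, Abcg1 and Hmgcs1 had r = -0.30 (adjusted permutation p = 0.455). This value was 0.39 in batch 1, -0.78 in batch 2 and -0.09 without the 2 mice farthest in Hmgcs1. On TPM 64 genes passed and of the pathway Idi1 alone, while the slopes of Abca1 and Abcg1 were 0.01 and 0.13.

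Many of the genes that moved with Hmgcs1 lie outside the pathway. The smallest p of all belonged to Ugt8a, the ceramide galactosyltransferase of myelin lipids, with a slope of 1.35 (adjusted p = 8.46e-08 by edgeR, mean 117 CPM), followed by Thoc7, of an mRNA export complex, with 0.75, the glucuronosyltransferase Ugt2b38 with 0.95 and the sphingosine phosphatase Sgpp1 with 0.80. Naa50, Cpox, Fam8a1, Nek7, Rybp and Ube3a completed the 10 of smallest p, with slopes of 0.53 to 0.76. In the other direction stood Pwwp3a at -1.04, Septin9 at -0.46, Rgl3 at -0.56, the stress sensor Sesn2 at -0.98 and Zfp395 at -0.95, then Ltbp3, the basement membrane proteoglycan Agrn, Gm17167, Nav1 and Slc4a11, at -0.55 to -1.25. The genes with a positive slope had a median transcript GC content of 43%, those with a negative slope 55.4% and the genes that did not pass 48.9%. Over the 28 pathway genes the slope and GC content had a rank correlation of -0.57. Mitochondrial share moved with Hmgcs1 too (r = 0.55, 0.12 in batch 1 and 0.77 in batch 2), and the part of these in the slopes was not tested.

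With other SREBP2 targets in the place of Hmgcs1, other genes of the pathway passed the threshold. By permutation with group means removed, no gene passed for Sqle or Insig1, so the calls here rest on the count model. On Sqle, 1 of 18338 genes passed (0.00545%), and it was Msmo1, with a slope of 1.19 (adjusted p = 0.00459 by edgeR). The adjusted permutation p of Msmo1 with Sqle was 0.428. On Insig1, 30 genes passed (0.164%), and 5 of them were of the pathway: Fdps, the farnesyl diphosphate synthase, at 0.71, Pmvk at 0.58, Msmo1 at 0.53, Fdft1 at 0.51 and Nsdhl at 0.39, with adjusted p-values of 0.0245 to 0.0487. Hmgcs1 was at -0.14 and Idi1 at 0.13 on Insig1, with adjusted p-values of 0.869 and 0.935 by edgeR. The correlation of Idi1 with Insig1 changed sign between the batches, at 0.50 in batch 1 and -0.69 in batch 2. So Hmgcs1 with Idi1, and Insig1 with Fdft1, Msmo1, Pmvk, Fdps and Nsdhl, passed in separate fits, and no test of the difference between the fits was run. On Sqle, Idi1 and Insig1 had slopes of 1.26 and 1.14, near that of Msmo1. Their adjusted p-values were 0.335 and 0.395 by edgeR.

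On Abca1, no gene passed by edgeR's quasi-likelihood test (0 of 18338, 0%), with 2302 (12.6%) under an unadjusted p of 0.05 (5.41% positive, 7.14% negative) and a smallest adjusted p of 0.0976. DESeq2 passed 134 genes, among them Idi1 (adjusted p = 0.0315) and Sqle (adjusted p = 0.0492). On CPM 17 of 20 SREBP2 targets had a negative slope (45.6% of all genes were positive), with a median of -0.14 against -0.02 for all genes; on TPM, where the median of all genes was 0.23, the SREBP2 targets stood 0.01 above it. Sqle had the smallest p of the 28 genes, with a slope of -0.31 (standard error 0.08, adjusted p = 0.134), which was 0.12 on TPM, and Idi1 followed with -0.62 (adjusted p = 0.162). Without WT replicate 5 the slope of Sqle was -0.15 (adjusted p = 0.571) and that of Abcg1 rose from 0.40 (adjusted p = 0.288) to 0.98 (adjusted p = 0.0135), while 229 genes passed. Outside the pathway, Vat1 had a slope of 0.44. Ptprs, Cldn4, Fbln2, Tfr2, Plp2, Fgb, Itpr3, Tnfsf15 and Fgg also lay on the positive side, at 0.43 to 1.72, and Adh5, Myom3, Slc22a22, Ghr, Mfap3l, Mturn, Perm1, Pde4dip and Irx3 on the negative side at -0.27 to -1.03. With Abcg1 in the place of Abca1, 463 genes passed (2.52%) and none of the pathway. Liver markers had r = 0.53 with Abca1, and the macrophage markers, which include cells known for LXR activity, had r = 0.46 with the LXR score and -0.44 with Hmgcs1; their part was not tested.

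Related pathway genes outside the 29 gave little in genotype. Of 12 genes of fatty acid synthesis and SREBP1, 8 of SREBP processing and sterol-regulated degradation, 4 tested of 6 other LXR genes and 12 of sterol storage, trafficking and uptake, none passed for HET against WT over all mice by edgeR. The smallest p was that of Ch25h, the cholesterol 25-hydroxylase that makes an LXR ligand, at 0.42 (p = 0.0361, adjusted p = 0.997). In batch 2 Ch25h was at 0.48 (p = 0.0255) and Npc1, the lysosomal cholesterol exporter, at -0.13 (p = 0.0109), with adjusted p-values of 0.592 and 0.585. On Hmgcs1, where 11.5% of all genes passed (8% positive, 3.53% negative; 64 genes on TPM), 2 of the 12 fatty acid genes passed as positive and 2 as negative, among them malic enzyme Me1 at 0.45 (adjusted p = 0.00755) and the desaturase Scd2 at -0.83 (adjusted p = 0.0089). Of the processing genes, 2 of 8 passed, the ubiquitin ligase Rnf139 at 0.36 and the COPII coat gene Sec23a at 0.32, and 1 each of the other 2 lists, the LXR-regulated Smpdl3a at 0.30 and the cholesteryl ester hydrolase Nceh1 at 0.46, all positive.

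Several of the 29 genes share exon sequence with a neighbour. Strand use in counting was not stated, so reads may be shared between such genes. On the other strand, exons of Fdft1 overlap Ctsb, those of Scap 5830462I19Rik, Hmgcs1 Gm48342, Idi1 Gm48574, Cyp51 Akap9, Ggps1 Arid4b, Lbr Dnah14 and Lss 4930483K19Rik. On the same strand Fdps overlaps Gm43738, Tm7sf2 overlaps Vps51 and Lbr overlaps Gm26004. Acat2 and Idi1 also have close paralogs, Acat3 and Idi2. On GRCm38 in GENCODE M21, the genes the results turn on are Hmgcs1 (ENSMUSG00000093930, chromosome 13, 119690379 to 119708260), Idi1 (ENSMUSG00000058258, chromosome 13, 8885501 to 8892451), Sqle (ENSMUSG00000022351, chromosome 15, 59315077 to 59331192), Cyp51 (ENSMUSG00000001467, chromosome 5, 4081145 to 4104746), Abca1 (ENSMUSG00000015243, chromosome 4, 53030787 to 53159895) and Abcg1 (ENSMUSG00000024030, chromosome 17, 31057675 to 31117988), all protein coding.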

How the data were processed

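Bulk RNA-seq of kidney, 24 libraries, was analysed from the table the authors deposited. The submitters' processing notes list fastp, STAR and featureCounts, with the build GRCm38 (mm10). Versions, annotation and strand setting: not given in the sources used here. Between 11.8% and 15.4% of identifiers had deposited expected counts that were fractional, and these were rounded; the deposited TPM was used, as log2(TPM + 1), only in alternatives and for levels, and the deposited FPKM was not used. No per-sample column lacked a sample. Depth ran from 29551337 to 33019871 counts (batch 1) and from 36380374 to 50746652 counts (batch 2). The labels give separate mice but tie no HET to a WT mouse, and replicate numbers follow deposition order. The title of HET replicate 8 differs from its library name, by which its column was matched.

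Genes were kept with filterByExpr by genotype (minimum count 10), scaled by TMM and tested with edgeR 4.0.16 (robust quasi-likelihood) in R 4.3.3, with Benjamini-Hochberg adjustment over all genes tested and a threshold of 0.05. CPM is TMM scaled, and log2 CPM used a prior count of 2. Alternatives were size factors, no filter, DESeq2 1.42.0, limma 3.58.1 on log2 TPM, other index genes and leaving out libraries. Correlations used 100000 permutations within genotype and batch. The tests were tried on simulated data. Gene positions came from GENCODE M21 (55141 of 55487 identifiers found) and promoters from RefSeq on GRCm38.p6.

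Fully described genes are Hmgcs1, Sqle, Insig1, Srebf2, Abca1, Abcg1, Mylip, Nr1h2 and the 4 of smallest p in each comparison, with the 10 of smallest p per direction and a mean of at least 1 CPM in each slope. A gene named by this rule is not reported here. The members and lists were chosen with earlier results of these data known. The cell marker lists were kidney, adrenal gland, macrophage, adipose, liver, nerve and Schwann cell, and cell cycle.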

Additional observations from a re-analysis of the deposited data

Results flagged for a closer look

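In groups of 5 to 7 mice, a single mouse lay apart from its group by Dixon's test in 6 of 116 gene and group combinations, where chance alone would flag about 1 in 20, or 5.8. In WT batch 2, Pmvk was lowest in WT replicate 11 at 7.02 CPM (the others 8.37 to 8.67 CPM) and Fdps was highest in WT replicate 8 at 21.9 CPM (the others 15.4 to 16.0 CPM). In WT batch 1, Sqle was highest in WT replicate 5 at 85.9 CPM (the others 63.3 to 70.9 CPM), the mouse on which the relation of Sqle with Abca1 rested, and Lbr was lowest in WT replicate 3 at 37.2 CPM (the others 42.2 to 45.1 CPM). In HET batch 1, Lbr was lowest in HET replicate 4 at 38.2 CPM (the others 41.6 to 43.4 CPM). In HET batch 2, Scap was lowest in HET replicate 9 at 72.0 CPM (the others 81.3 to 88.6 CPM).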

How the results depend on the processing

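No paired analysis was possible because the labels tie no HET mouse to a WT mouse and the replicate numbers follow deposition order. Size factors in place of TMM, and the filter on genotype-by-batch groups (added after seeing the data), moved no listed result. The TPM scale moved most. On it, HET against WT over all mice was -0.035 for Hmgcs1 (-0.003 with no filter), -0.011 for Insig1, -0.018 for Srebf2, -0.02 for Mylip and -0.012 for the SREBP2 median. In batch 2 it was -0.026 for Hmgcs1, -0.098 for Insig1 and -0.042 for the SREBP2 median, with 0 genes passing. The interaction was -0.003 for Mvd, -0.055 for the SREBP2 and -0.505 for the LXR median. Batch 2 against batch 1 was 1.05 for the SREBP2 and 0.45 for the LXR median, 0.30 for Abca1, 0.45 for Abcg1 and 0.56 for Lbr. On Hmgcs1, 1 member and 64 genes passed, with slopes of 0.005 for Abca1 and 0.13 for Abcg1. On Abca1, 9 members and 7510 genes passed, with slopes of 0.12 for Sqle, 0.18 for Acat2, 0.14 for Cyp51 and 0.002 for Hmgcs1. Correlations on TPM were 0.47 for the scores, 0.02 for Hmgcs1, 0.26 for Sqle and 0.34 for Insig1 with Abca1, 0.11 for Hmgcs1 with Insig1 and 0.32 for Ggps1 with Mvk. Within a batch, Insig1 with Abca1 was 0.28 in batch 2 and Hmgcs1 with Insig1 0.04 in batch 1. With no filter, 1 gene passed in batch 1, 3 in batch 2, 1331 on Hmgcs1 and 19 on Abca1. By DESeq2, 1 gene passed in batch 1, 27 genes and 1 member in batch 2, 2765 genes and 5 members on Hmgcs1, and 134 genes and 2 members on Abca1. Without the 3 doubted libraries, 2 genes passed over all mice, 2 in batch 1 and 1237 on Hmgcs1. Sqle as index passed 1 gene and 1 member, Insig1 30 genes and 5 members, and Abcg1 463 genes. Apart from the construction of TPM and the fewer samples or genes, the cause was not tested.

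Leaving out a mouse at a time passed 0 genes over all mice, 0 in batch 1, 1 to 3 in batch 2, 0 in the interaction, 11299 to 11688 between batches, 1066 (without HET replicate 6) to 2437 on Hmgcs1 (also 1330 without HET replicate 9 and 1176 without WT replicate 8) and 0 to 229 on Abca1. Of the 29 genes it passed 18 to 21 between batches, 1 to 5 on Hmgcs1 and 0 to 1 on Abca1. SREBP2 medians ranged from 0.01 to 0.05 over all mice, -0.04 to 0.04 in batch 1, 0.05 to 0.08 in batch 2, 0.08 to 0.14 in the interaction and 0.18 to 0.23 between batches. Hmgcs1 ranged from -0.025 to 0.033, Insig1 from -0.02 to 0.076, Srebf2 from -0.004 to 0.041 and Mylip from -0.021 to 0.087 over all mice. In batch 2 Insig1 ranged from -0.013 to 0.121. The scores' correlation was -0.49 to -0.14, and Insig1 with Abca1 -0.20 to 0.14. With 5 to 7 mice per group and batch, no member passed between genotypes by edgeR, and Cyp51 passed in batch 2 by DESeq2.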
